A study of Mus musculus with 4 samples.

Results

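The G1 cyclins, CDK2 and the CDK inhibitors were followed at the RNA level in the mouse preadipocyte line 3T3-L1, whose cells fill with fat under adipogenic hormones. The set holds 10 of the 13083 genes in the deposited tables and was chosen by gene name: the D-type cyclins Ccnd1, Ccnd2 and Ccnd3, the E-type cyclin Ccne1, the kinases Cdk2, Cdk4 and Cdk6, the inhibitors Cdkn1a and Cdkn1b, and Rb1. CACUL1 carries CDK2 in its name (CDK2-associated cullin 1), and the comparison asks how far the RNA of the G1 machinery differed when CACUL1 was overexpressed or depleted. All 10 genes were present in the tables, each as 1 entry.

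In G1, D-type cyclins bind CDK4 or CDK6 and start the phosphorylation of RB, the pocket protein that holds E2F transcription factors inactive. Freed E2F raises cyclin E, which activates CDK2 and brings the cell into S phase, whereas p21 (Cdkn1a) and p27 (Cdkn1b) bind and restrain cyclin-CDK complexes. Confluent 3T3-L1 cells given the hormone mixture first re-enter the cell cycle, a phase called mitotic clonal expansion, and then leave it as they become adipocytes. Several members also act outside the cycle in this lineage, since cyclin D1 represses PPARγ, the nuclear receptor that drives fat cell formation, and cyclin D3 and CDK4 activate it.

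There were 4 stable lines with 1 sample each, so no difference given here has a replicate check and no p-value was computed. FLAG-CACUL1 cells overexpressed FLAG-tagged CACUL1 and FLAG cells carried the empty vector, both selected with G418. In sh-CACUL1 cells 1 short hairpin RNA depleted CACUL1, and sh-Luc cells carried a hairpin against luciferase, both selected with hygromycin B. The lines were grown from drug-resistant transfected cells, the number of clones in each is not given in the sources used here, and neither is the species of the CACUL1 insert. All 4 lines, controls included, were kept to confluence. The initiation medium then held insulin (5 µg/ml), dexamethasone (1 µg/ml), IBMX (0.5 mM) and rosiglitazone (5 µM). Medium for which only insulin (5 µg/ml) is named followed, and RNA was taken on day 8. A difference in vector and drug therefore separates the FLAG pair from the hairpin pair.

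Values are FPKM, the fragments per kilobase of transcript relative to all mapped fragments of a sample. Changes were taken as log2 ratios of FPKM + 1, which understates the change of low genes, and 2-fold or more on this scale was counted as a difference. Depth, estimated from the spacing of low FPKM values, was between 14200000 and 14900000 fragments in 3 lines and 24000000 in sh-Luc. The targeted gene, Cacul1, had 9.61 FPKM in FLAG and 11.8 in FLAG-CACUL1, beside 10.3 in sh-Luc and 5.39 FPKM in sh-CACUL1. Both differences of Cacul1 were under 2-fold, with changes of 0.27 in the FLAG pair and -0.82 in the hairpin pair, the latter -0.36 with quantile normalization and -0.40 with median-of-ratios scaling. Whether reads of the FLAG-CACUL1 construct count toward this value is not known. The median change of all genes was 0.09 in FLAG-CACUL1 against FLAG and -0.30 in sh-CACUL1 against sh-Luc, and both were near 0 after quantile normalization (0.04 and -0.01). Changes in the hairpin pair are therefore also given after subtraction of the median of all genes.

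The cells are labelled preadipocytes, but all 9 adipocyte markers found in the tables were above 0 in every line. The lowest value, 0.101 FPKM of Slc2a4 in FLAG-CACUL1, was close to 0. Their summed level was 8443 FPKM in FLAG and 882 in FLAG-CACUL1, beside 1689 in sh-Luc and 17529 FPKM in sh-CACUL1. Fabp4 was the largest part of the sum in every line but FLAG-CACUL1, with 12543 FPKM in sh-CACUL1. In FLAG-CACUL1 each of the 9 was lower by 2-fold or more relative to FLAG, as were 7.22% of all genes. In sh-CACUL1 each was higher by 2-fold or more relative to sh-Luc, as were 4.95% of all genes. The controls also differed, with all 9 higher in FLAG than in sh-Luc, 8 of them by 2-fold or more (8.58% of all genes). The 9 preadipocyte or fibroblast markers summed to 8150, 9373, 5314 and 1090 FPKM in the same order of lines, but sh-Luc had only 0.220 FPKM of Dlk1 and 0.663 FPKM of Thy1. The 6 proliferation markers summed to 21.7, 13.0, 53.8 and 24.2 FPKM. The 4 macrophage markers found summed to 40.0, 111, 9.13 and 6.41 FPKM, but did not move together, and Ptprc and Adgre1 were not found. In FLAG-CACUL1 2 were higher than in FLAG and 2 lower. Lyz2 had 8.12 FPKM in FLAG and 66.5 in FLAG-CACUL1, whereas Cd68 had 16.2 and 1.44. The single endothelial and epithelial markers found, Pecam1 and Krt8, stayed at or below 0.301 and 2.64 FPKM. The share of these marker differences in the results on the members was not tested. In bulk RNA, fewer cells of a type and less RNA per cell cannot be told apart.

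Promoter sequences were read from RefSeq (GRCm38.p6) for 7 of the 10 members. Ccnd1, Ccnd2 and Rb1 had no entry. Within the 250 bases before the start of Cdk4, the sequence CACGTG, the E-box bound by MYC, USF and related factors and the same on both strands, occurred 4 times. At least 1 copy was found in 6.02% of the 32841 promoters of this length, and at least 4 copies in 7 of them (0.0213%). Starts here are those of RefSeq, and for Cdk6 and Cdk2 they differ from the GENCODE gene bounds given further on. The Cdk6 window, chr5:3343643-3343892, lies inside the GENCODE span of the gene and held 1 copy, between 215 and 220 bases before the RefSeq start and outside any exon that GENCODE M21 annotates. The Cdk2 window, chr10:128705052-128705301, begins upstream of the GENCODE gene bound, and the bases after its start were not found in a GENCODE transcript of Cdk2. It held 1 E2F motif, TTTCCCGC read on the opposite strand of the gene, between 133 and 140 bases before the RefSeq start and in an annotated exon of Pmel, which runs the other way. Of all promoters, 0.895% hold this motif on either strand. These 3 stretches are shown because they hold every match to the E-box and to both E2F motifs searched (TTTCCCGC and TTTGGCGC) among the 7 members, with the matching bases in capitals. A match is a description of the letters and not evidence of a bound site.
Cdk4, chr10:127063285-127063533, plus strand: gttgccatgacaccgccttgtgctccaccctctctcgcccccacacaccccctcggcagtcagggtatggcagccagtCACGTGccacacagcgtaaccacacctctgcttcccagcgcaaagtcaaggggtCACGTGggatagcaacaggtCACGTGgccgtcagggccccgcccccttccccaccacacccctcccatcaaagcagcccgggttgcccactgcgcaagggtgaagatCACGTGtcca
Cdk6, chr5:3343663-3343688, plus strand: tctgcggcccCACGTGggtgaacccc
Cdk2, chr10:128705174-128705201, minus strand: accaggaactGCGGGAAAgttgtgcagc

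**Figure D1:**
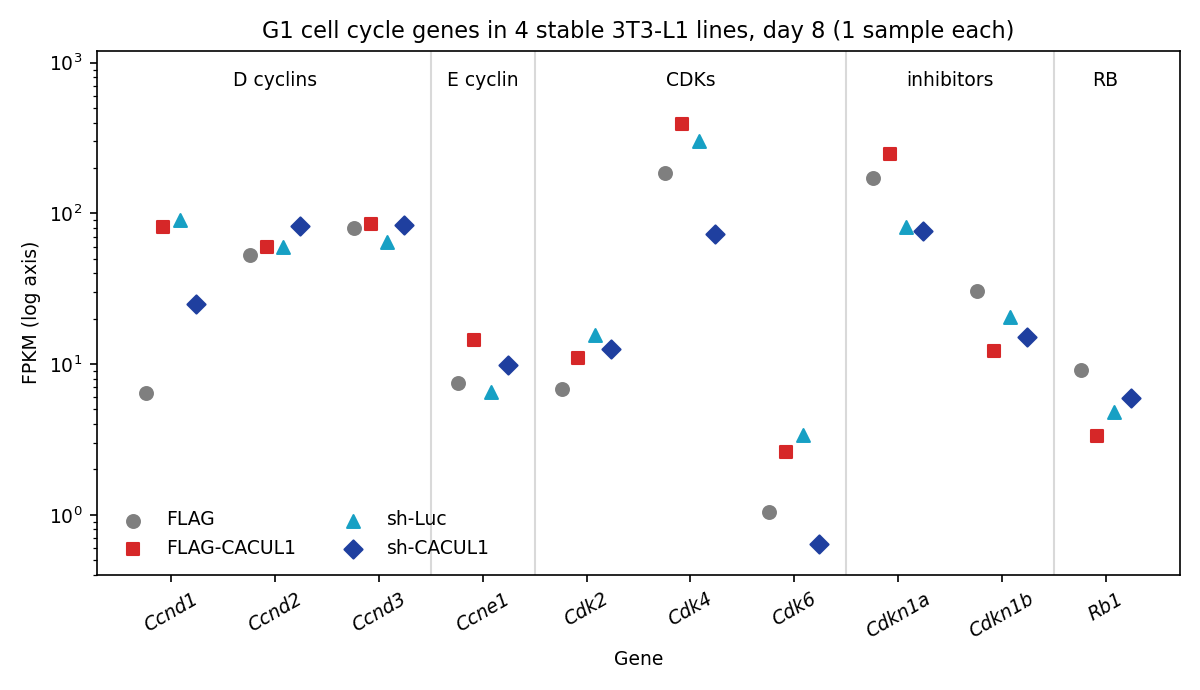
FPKM on a log axis (vertical) of the 10 genes (horizontal, ordered by role) in the 4 lines, 1 point per sample. Ccnd1 spanned 6.46 to 90.8 FPKM with FLAG lowest, Cdk4 and Cdk6 were lowest in sh-CACUL1, and Ccnd2 and Ccnd3 lay close together in all lines.

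Of the D cyclins, only Ccnd1 differed by 2-fold or more in any of the 3 comparisons made here. Ccnd1 (NM_007631, GRCm38 chr7:144929931-144939925, minus strand), which encodes cyclin D1, had 6.46 FPKM in FLAG and 81.3 in FLAG-CACUL1, beside 90.8 in sh-Luc and 25.1 FPKM in sh-CACUL1. It was thus low in FLAG, intermediate in sh-CACUL1 and high in FLAG-CACUL1 and sh-Luc, which lay 1.12-fold apart. The FPKM ratio was 12.6-fold in favour of FLAG-CACUL1 over FLAG, a change of 3.46 that was at the 99.9th percentile of all genes. In sh-CACUL1 it was 3.61-fold lower than in sh-Luc, a change of -1.81, or -1.51 after subtraction of the median of all genes. The control lines themselves differed more than either pair, with 14.1-fold less Ccnd1 in FLAG than in sh-Luc. Both directions turned when the control was exchanged, to -0.16 for FLAG-CACUL1 against sh-Luc and 1.81 for sh-CACUL1 against FLAG.

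Ccnd2 (NM_009829, chr6:127125162-127152193, minus strand) and Ccnd3 (NM_007632 and 2 other transcripts, chr17:47505051-47599691, plus strand) encode cyclins D2 and D3. Ccnd2 had 52.6 FPKM in FLAG and 59.4 in FLAG-CACUL1, beside 60.1 in sh-Luc and 82.1 FPKM in sh-CACUL1. Ccnd3 had 79.7, 84.9, 64.9 and 84.2 FPKM in the same order. Both were highest or nearly highest in sh-CACUL1, where the changes against sh-Luc were 0.44 and 0.37, or 0.75 and 0.67 after subtraction of the median of all genes. In FLAG-CACUL1 the change of Ccnd2 was 0.17 and that of Ccnd3 was 0.09, and the latter became -0.05 with median-of-ratios scaling. The order of Ccnd3 in FLAG, sh-CACUL1 and FLAG-CACUL1 was not resolved at the estimated depth, since the counting intervals of both steps held 0.

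The make-up of the D cyclins differed with Ccnd1. Of the summed FPKM of Ccnd1, Ccnd2 and Ccnd3, Ccnd1 took 4.65% in FLAG and 36.0% in FLAG-CACUL1, whereas it took 42.1% in sh-Luc, against 13.1% in sh-CACUL1. Ccnd3 was the most abundant D cyclin in FLAG (57.4%), and Ccnd1 was the most abundant in sh-Luc. In FLAG-CACUL1 Ccnd3 (37.6%) and Ccnd1 (36.0%) were nearly equal, as were Ccnd3 (44.0%) and Ccnd2 (42.9%) in sh-CACUL1. The sum itself was 139 FPKM in FLAG and between 191 and 226 FPKM in the other lines. A linear scaling between samples leaves these shares as they are.

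Cdk4 and Cdk6, which encode the kinase partners of the D cyclins, had the same direction in both CACUL1 comparisons, higher in FLAG-CACUL1 and lower in sh-CACUL1. Cdk4 (NM_009870, chr10:127063534-127067920, plus strand), whose 4 E-boxes are shown above, had 187 FPKM in FLAG and 393 in FLAG-CACUL1, beside 304 in sh-Luc and 72.5 FPKM in sh-CACUL1. FLAG-CACUL1 was highest and sh-CACUL1 lowest, with both controls between them. The change was 1.07 in FLAG-CACUL1 against FLAG, which was 0.93 with median-of-ratios scaling and then under 2-fold, and -2.05 in sh-CACUL1 against sh-Luc, or -1.75 after subtraction of the median of all genes. With the other control the changes were 0.37 and -1.35, in the same directions. The order of the lines by Cdk4 was the reverse of their order by summed adipocyte markers (882 FPKM in FLAG-CACUL1 to 17529 FPKM in sh-CACUL1), and the part of adipocyte content in the difference was not tested.

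Cdk6 (NM_009873, chr5:3341485-3531008, plus strand) was the scarcest member, with 1.04 FPKM in FLAG and 2.62 in FLAG-CACUL1, beside 3.40 in sh-Luc and 0.636 FPKM in sh-CACUL1. It was lowest in sh-CACUL1 and highest in sh-Luc, and rested on an estimated 109 to 943 fragments per line. The ratio of FPKM was 2.53-fold between FLAG-CACUL1 and FLAG (log2 ratio 1.34, 95% counting interval 1.08 to 1.60), but the change of FPKM + 1 was 0.83 and stayed under 2-fold. In sh-CACUL1 it was 5.35-fold lower than in sh-Luc, a change of -1.43. Against the other control Cdk6 was lower in both, with changes of -0.28 (FLAG-CACUL1) and -0.32 (sh-CACUL1). Cdk4 exceeded Cdk6 in FPKM in every line, by 89.4-fold in sh-Luc to 180-fold in FLAG.

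Ccne1 and Cdk2, which form the kinase of the G1/S transition, differed by less than 2-fold from the matching control in both CACUL1 lines. Ccne1 (NM_007633, chr7:38097984-38107534, minus strand) had 7.51 FPKM in FLAG and 14.4 in FLAG-CACUL1, beside 6.55 in sh-Luc and 9.79 FPKM in sh-CACUL1. Both CACUL1 lines were above both controls, and how many of all genes had this order was not counted. The change was 0.86 in FLAG-CACUL1 against FLAG and 0.52 in sh-CACUL1 against sh-Luc (0.82 after subtraction of the median of all genes). With the other control the change was 1.03 in FLAG-CACUL1, past 2-fold, and 0.34 in sh-CACUL1. The difference between the controls, FLAG and sh-Luc, was not resolved at the estimated depth (log2 ratio 0.20, 95% counting interval -0.06 to 0.45).

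Cdk2 (NM_183417 and NM_016756, chr10:128697939-128705031, minus strand), the kinase for which CACUL1 is named, had 6.79 FPKM in FLAG and 10.9 in FLAG-CACUL1, beside 15.7 in sh-Luc and 12.5 FPKM in sh-CACUL1. Both hairpin lines were above both FLAG lines, an order whose share among all genes was not counted. The change was 0.61 in FLAG-CACUL1 against FLAG, and in sh-CACUL1 against sh-Luc it was -0.30, which is close to the median of all genes and became 0.14 with quantile normalization and with median-of-ratios scaling. The controls differed by 2.31-fold (change -1.10), more than either pair. With the other control, Cdk2 was lower in FLAG-CACUL1 (-0.48) and higher in sh-CACUL1 (0.79). The level of Ccne1 per Cdk2 was 1.11 in FLAG and 1.32 in FLAG-CACUL1, whereas it was 0.418 in sh-Luc, with 0.783 in sh-CACUL1.

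The p21 and p27 inhibitors went different ways in FLAG-CACUL1. Cdkn1a (NM_007669 and NM_001111099, chr17:29090976-29100727, plus strand), the p53-responsive p21, had 172 FPKM in FLAG and 246 in FLAG-CACUL1, beside 80.7 in sh-Luc and 76.6 FPKM in sh-CACUL1. The 2 FLAG lines were high and the 2 hairpin lines low, and the controls differed by 2.13-fold. The share of all genes with such an order was not counted. Within the pairs Cdkn1a changed by 0.51 with FLAG-CACUL1 and by -0.07 with sh-CACUL1, and the latter value turned to 0.13 with quantile normalization and 0.40 with median-of-ratios scaling. With the other control both values were past 2-fold, with changes of 1.60 (FLAG-CACUL1) and -1.16 (sh-CACUL1). The counting interval of the hairpin pair held 0 (log2 ratio -0.16 to 0.01).

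Cdkn1b (NM_009875, chr6:134920401-134925513, plus strand), which encodes p27, had 30.7 FPKM in FLAG and 12.3 in FLAG-CACUL1, beside 20.6 in sh-Luc and 15.1 FPKM in sh-CACUL1. It was lowest in FLAG-CACUL1 and highest in FLAG, 2.50-fold apart, a change of -1.26. In sh-CACUL1 the change was -0.42, or -0.12 after subtraction of the median of all genes, and turned to 0.03 with median-of-ratios scaling. Against the other control Cdkn1b was lower in both CACUL1 lines, by a change of -0.70 (FLAG-CACUL1) or -0.98 (sh-CACUL1).

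Rb1 (NM_009029, chr14:73183673-73325822, minus strand), which encodes the pocket protein RB, had 9.20 FPKM in FLAG and 3.35 in FLAG-CACUL1, beside 4.82 in sh-Luc and 5.94 FPKM in sh-CACUL1. As for Cdkn1b, FLAG was highest and FLAG-CACUL1 lowest, 2.75-fold apart (change -1.23). In sh-CACUL1 the change was 0.25 against sh-Luc, or 0.56 after subtraction of the median of all genes, but -0.55 against FLAG. With sh-Luc as the control, FLAG-CACUL1 was lower by less than 2-fold (-0.42).

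**Figure D2:**
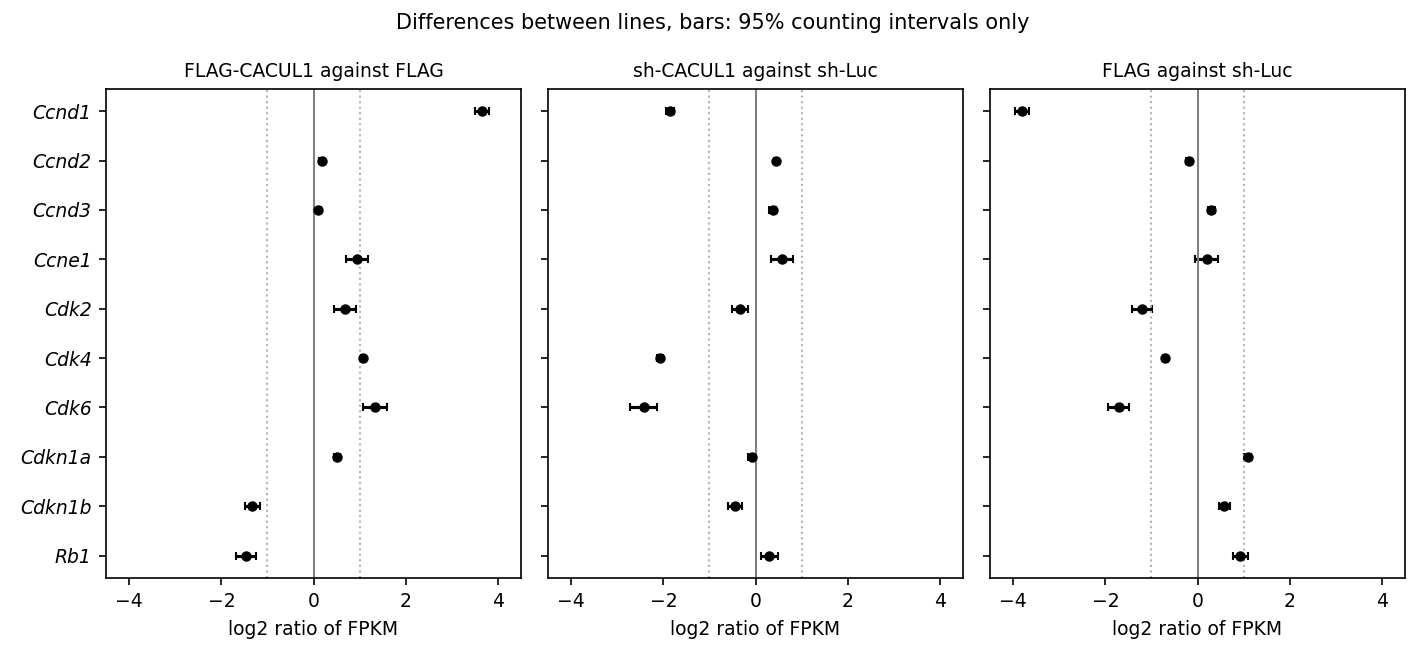
Log2 ratio of FPKM without a pseudocount (horizontal) for the 10 genes in 3 comparisons, with 95% intervals that cover counting error only and rest on the estimated depth, and dotted lines at 2-fold. Ccnd1 lay at 3.66, -1.85 and -3.82 in the panels from left to right, and the intervals of Cdk6, Ccne1, Cdk2 and Rb1 are the wide ones.

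In FLAG-CACUL1 against FLAG, 4 of the 10 members differed by 2-fold or more, Ccnd1 and Cdk4 upward and Cdkn1b and Rb1 downward. Of all genes, 14.7% did so, with 7.51% higher and 7.22% lower (982 and 945 genes, or 754 and 1169 with median-of-ratios scaling). A total of 8 members were higher and 2 lower by any amount, beside 58.7% and 41.3% of all genes. The median change of the members was 0.56 beside 0.09 for all genes. With median-of-ratios scaling Cdk4 was under 2-fold, which left 1 member higher and 2 lower. The plot of log2 ratios shows these members outside the dotted lines, together with Cdk6, which passed only without the pseudocount.

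In sh-CACUL1 against sh-Luc, 3 members differed by 2-fold or more, all downward, namely Ccnd1, Cdk4 and Cdk6. Among all genes 21.3% did so, of which more were lower (16.4%) than higher (4.95%), but with quantile normalization 1084 genes were lower and 1179 higher. By any amount, 4 members were higher and 6 lower, beside 31.3% and 68.7% of all genes. With quantile normalization 6 were higher and 4 lower, beside 48.5% and 51.4% of all genes. The median change of the members was -0.19 beside -0.30 for all genes, and 0.13 beside -0.01 with quantile normalization. The same 3 genes were past 2-fold under both scalings.

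FLAG and sh-Luc carry no CACUL1 treatment, yet 4 members were 2-fold or more apart, Cdkn1a higher in FLAG and Ccnd1, Cdk2 and Cdk6 lower. Of all genes 21.0% were, with 8.58% higher and 12.4% lower in FLAG. With quantile normalization 2 members were higher, Cdkn1a and Rb1, and only Ccnd1 was lower, and of all genes 1345 were higher and 1143 lower. This comparison shares a sample with each of the other comparisons. The median change was -0.01 for the members and -0.185 for all genes, and after subtraction of that median only Ccnd1 and Cdkn1a were past 2-fold.

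**Figure D3:**
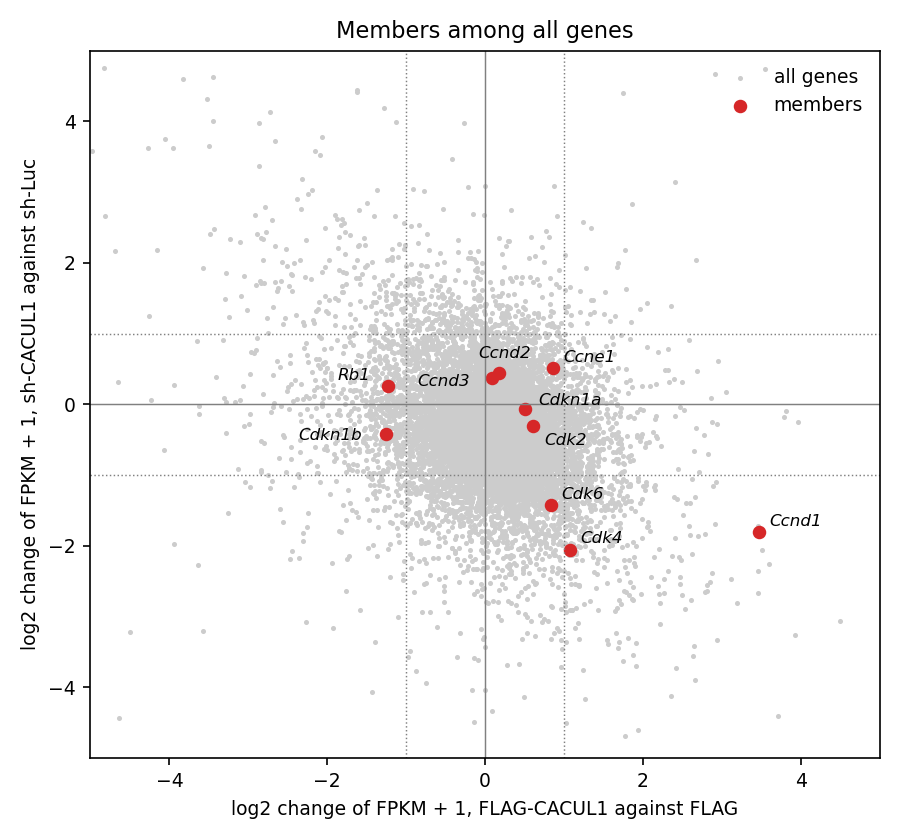
Change of log2(FPKM + 1) in FLAG-CACUL1 against FLAG (horizontal) and in sh-CACUL1 against sh-Luc (vertical) for all genes in gray and the 10 members in red, with dotted lines at 2-fold and 18 genes outside the plotted range. Ccnd1 (3.46 and -1.81) and Cdk4 (1.07 and -2.05) lie in the lower right corner beyond both lines, and Cdkn1a and Cdk2 change sign on the vertical axis with quantile normalization.

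The values of both comparisons side by side place 5 members, Ccnd1, Cdk2, Cdk4, Cdk6 and Cdkn1a, as higher in FLAG-CACUL1 and lower in sh-CACUL1 by any amount. Of all genes, 43.4% had this combination. With quantile normalization Cdk2 and Cdkn1a left it. Ccnd1 and Cdk4 were at least 2-fold higher in FLAG-CACUL1 and at least 2-fold lower in sh-CACUL1, as were 3.02% of all genes. Rb1 was the member with the opposite combination by any amount, which 16.1% of all genes had. Cdkn1b was lower in both lines, and Ccnd2, Ccnd3 and Ccne1 were higher in both, except that Ccnd3 in FLAG-CACUL1 and Cdkn1b in sh-CACUL1 changed sign with median-of-ratios scaling.

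Ratios between members within a line are also free of any linear scaling between samples. The level of p21 per CDK2, as Cdkn1a over Cdk2 FPKM, was 25.3 in FLAG and 22.5 in FLAG-CACUL1 but only 5.15 in sh-Luc, with 6.13 in sh-CACUL1. Cdkn1b over Cdk2 was 4.52 in FLAG and between 1.12 and 1.32 in the other 3 lines. Summed Cdkn1a and Cdkn1b over summed Cdk2, Cdk4 and Cdk6 was 1.04 in FLAG and 0.635 in FLAG-CACUL1, whereas it was 0.313 in sh-Luc, with 1.07 in sh-CACUL1. It was thus lower in FLAG-CACUL1 and higher in sh-CACUL1 than in the matching control. Most of the denominator was Cdk4 (72.5 FPKM in sh-CACUL1 to 393 in FLAG-CACUL1), so the ratio largely restates the Cdk4 difference. Against the other control FLAG-CACUL1 was higher (0.635 beside 0.313), and sh-CACUL1 was nearly equal (1.07 beside 1.04). Summed D cyclins over summed Cdk4 and Cdk6 were 0.740, 0.571, 0.702 and 2.62 in the same order. The line with more D cyclin than kinase FPKM was sh-CACUL1, where Cdk4 was lowest.

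**Figure D4:**
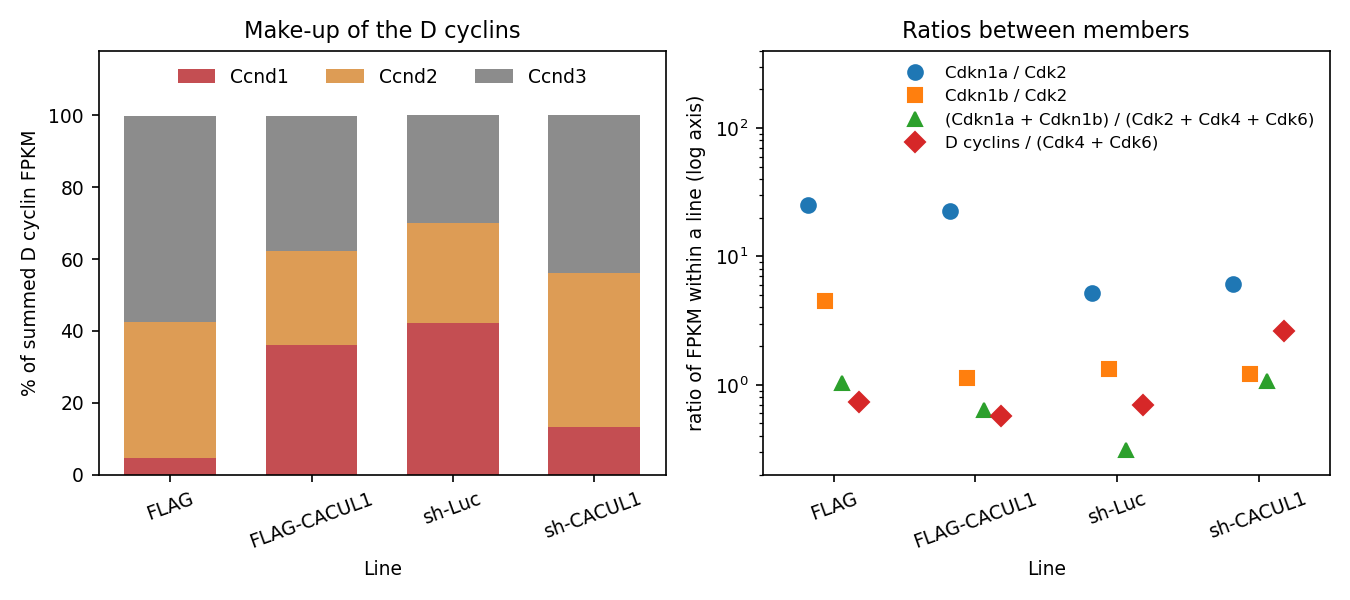
Left, share (%) of Ccnd1, Ccnd2 and Ccnd3 in their summed FPKM in each line, with Ccnd1 between 4.65% in FLAG and 42.1% in sh-Luc. Right, ratios of FPKM between members within each line on a log axis, 1 point per line, in which Cdkn1a over Cdk2 was 22.5 or more in the FLAG lines and 6.13 or less in the hairpin lines.

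The following lists are counted against the same shares of all genes past 2-fold, 7.51% higher and 7.22% lower in FLAG-CACUL1, and 4.95% higher and 16.4% lower in sh-CACUL1. Among the other CDK inhibitors, Cdkn2a and Cdkn2b had the directions of Cdk4. Of the 4 found, 2 were at least 2-fold higher in FLAG-CACUL1 (and Cdkn2d 2-fold lower with quantile normalization), and 2 were at least 2-fold lower in sh-CACUL1, namely these genes in both cases. Cdkn2a, which encodes p16 and p19ARF, had 222 FPKM in FLAG and 498 in FLAG-CACUL1, beside 342 in sh-Luc and 153 FPKM in sh-CACUL1. Cdkn2b, which encodes p15, another inhibitor of CDK4 and CDK6, had 37.1, 83.9, 61.2 and 7.43 FPKM. The changes were 1.16 for both genes in FLAG-CACUL1, and -1.16 for Cdkn2a and -2.88 for Cdkn2b in sh-CACUL1.

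S-phase genes known as E2F targets, which lie downstream of RB, had lower levels in sh-CACUL1 than in sh-Luc. Of the 18 measured, none was higher in the deposited FPKM, beside 31.3% of all genes. At least 2-fold lower than in sh-Luc were 7 (38.9%, beside 16.4% of all genes, and 3 genes with quantile normalization). The median was -0.90 beside -0.30 for all genes (-0.54 beside -0.01 with quantile normalization). The lowest were the replicative helicase subunits Mcm4 (-1.67), Mcm2 (-1.57) and Mcm3 (-1.51). In FLAG-CACUL1 2 of the 18 were 2-fold lower, Tk1 (-1.53) and Cdt1 (-1.41), and none was 2-fold higher, with a median of -0.22. The summed FPKM of the list was 158 in FLAG and 127 in FLAG-CACUL1, beside 290 in sh-Luc and 139 FPKM in sh-CACUL1. The sum in sh-Luc thus stood above the other lines, as it did for proliferation markers. In FLAG against sh-Luc 8 of the 18 were 2-fold lower, beside 12.4% of all genes.

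Among 12 other pocket proteins and E2F or DP factors, none was past 2-fold in FLAG-CACUL1, and 4 were lower in sh-CACUL1 (1 with quantile normalization), among them E2f8 (-1.23), E2f4 (-1.14) and E2f7 (-1.11). Of 11 other cyclins and CDK partners, Ccne2, the second cyclin E gene, was 2-fold lower in FLAG-CACUL1 (-1.26). In sh-CACUL1 4 were lower, led by Ccnb1 (-1.37), Cdk1 (-1.26) and Ccna2 (-1.24), but with quantile normalization the count was 0. Ccna2 is also counted among the E2F targets above. In sh-CACUL1 the median was -0.65 for the pocket proteins and E2F or DP factors and -0.80 for the cyclins and CDK partners.

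SCF ubiquitin ligases and related cullins degrade cyclins and CDK inhibitors, p27 and cyclin E among them. Of 12 genes of this machinery, Rbx1 (1.44) and Skp1a (1.14), which encode a RING subunit and an adaptor, were past 2-fold in FLAG-CACUL1, both upward. Rbx1 had 19.09 FPKM in FLAG and 53.55 in FLAG-CACUL1, beside 53.71 in sh-Luc and 36.35 in sh-CACUL1. Skp1a had 36.08, 80.97, 90.94 and 81.78 FPKM in the same order. Both were thus lowest in FLAG, and the change in FLAG against sh-Luc was -1.445 for Rbx1 and -1.310 for Skp1a. In sh-CACUL1 Ddb1 (-1.33) and Skp2 (-1.21), the latter encoding the F-box protein that recognizes p27, were lower, which is 16.7% of the list beside 16.4% of all genes. Skp2 was under 2-fold with quantile normalization (-0.78). Of 12 mitogen and stress regulators, 3 were lower in FLAG-CACUL1, among them the AP-1 genes Fosl1 (-2.25) and Fos (-1.87), and Ctnnb1, which encodes β-catenin, was higher (1.23). In sh-CACUL1 7 were lower (4 lower and 1 higher with quantile normalization), led by Jun (-1.98), Junb (-1.95) and Foxo3 (-1.89). The medians of this list were -0.64 and -1.15.

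**Figure D5:**
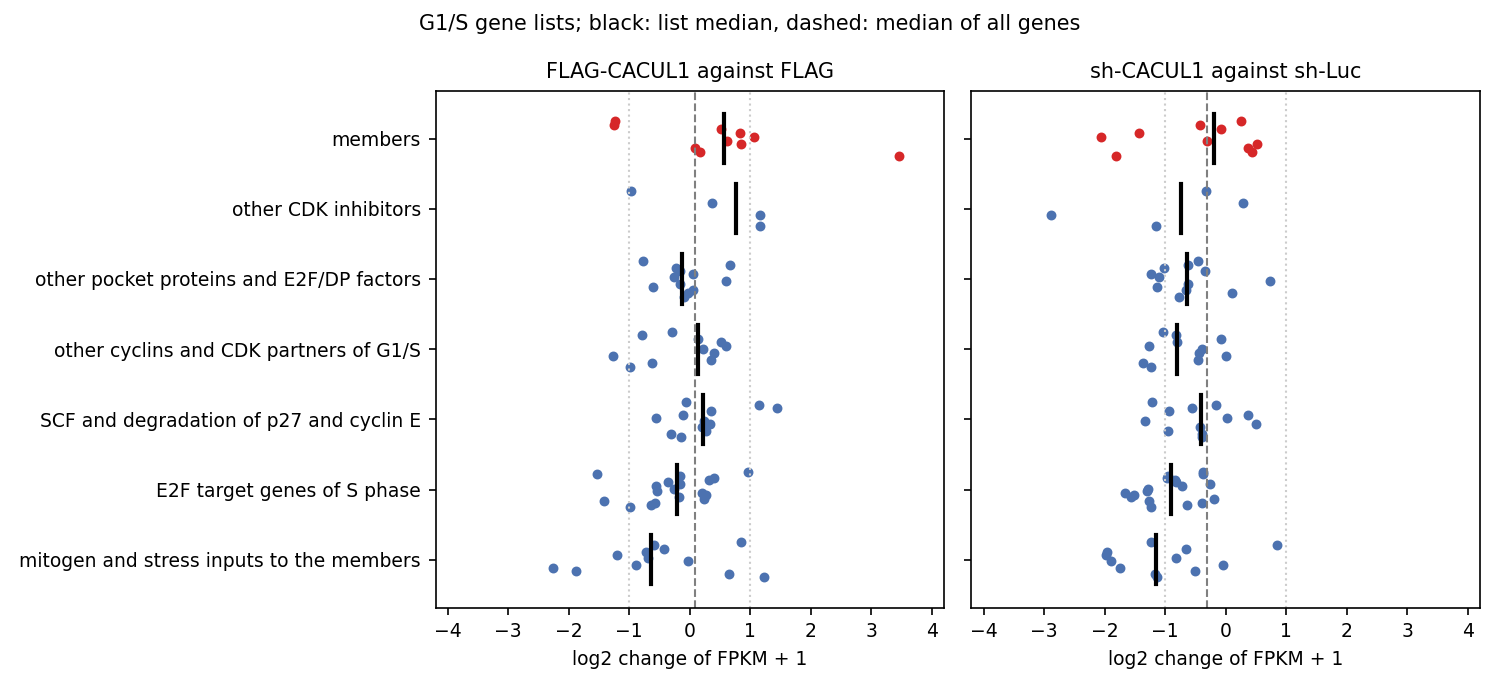
Change of log2(FPKM + 1) (horizontal) of each gene in the members (red) and 6 related lists (blue) in the CACUL1 comparisons, with a black bar at each list's median, a dashed line at the median of all genes (0.09 and -0.30) and dotted lines at 2-fold. The E2F target genes lay at or below 0 in the right panel, all 18 of them, and the members spread to both sides in both panels.

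By the distance between profiles of log2(FPKM + 1), centred over the 4 samples, Ccnd2 and Ccnd3 were nearest to each other (0.48), as were Cdkn1b and Rb1 (0.48) and Cdk4 and Cdk6 (0.97). The nearest member to Ccnd1 was Cdk6, at 2.13. Among all genes with at least 1 FPKM in every line, the 3 nearest to Cdk2 were Cse1l (0.044), Prkag1 (0.045) and Tomm40l (0.047), and Cse1l had 7.17, 11.7, 17.2 and 13.5 FPKM.

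Some members share exon sequence with genes on the opposite strand, and strand use in the counting is not given in the sources used here, so reads of the partners cannot be told apart. For Ccnd1 the partner is LTO1 (1100 shared exon bases), which had 4.31, 8.56, 8.16 and 3.98 FPKM, low beside the high Ccnd1 levels but close to the 6.46 FPKM of Ccnd1 in FLAG. For Cdk4 it is Tspan31 (641 shared bases, 19.7% of the exon bases of Cdk4), with 194, 176, 110 and 57.0 FPKM. In FLAG this exceeded Cdk4 itself. Rb1 overlaps Rcbtb2 (488 shared bases, 8.11% of its exon bases), with 6.81, 10.4, 14.4 and 16.6 FPKM, above Rb1 in all lines but FLAG, and Lpar6 (408 bases, 6.78%), with 2.65, 2.77, 4.92 and 6.40 FPKM. Ccnd3 shared 13.2% of its 31-base stretches with the pseudogene Ccnd3-ps, and its values are uncertain to that extent. Cdk4 and Cdk6 shared 3.41% and 2.59% with other transcripts.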

How the data were processed

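RNA from 4 stable 3T3-L1 lines was analysed, 1 sample each. A company prepared and sequenced the mRNA libraries. The authors deposited FPKM values for 13110 entries of RefSeq transcripts per sample, and the build in the submitters' processing notes is mm10. The aligner, the annotation, the program for FPKM, strand use and any filter are not given in the sources used here. No counts were used, so no count test was run, and with 1 sample per group no test was possible.

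Entries were joined to symbols through GENCODE M21 (GRCm38). A symbol was missing for 191, 8 matched more than 1, and entries of 1 symbol were summed, which left 13083 genes. Changes are log2 ratios of FPKM with a pseudocount of 1 and without a filter. Counting intervals (95%) used fragments estimated from depth, cover counting error only and are no substitute for replicates. The depth itself was estimated from the spacing of FPKM multiplied by length in 4241 entries of at least 3 kb.

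The members and lists were chosen with earlier results of these data known. All members are named, with at most 3 genes per list and comparison, those with the largest absolute change among genes at least 2-fold apart and at 1 FPKM or more in 1 sample. Markers that illustrate a line were chosen after their values were seen.

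There were 8 alternatives. The pseudocount was set to 0.1 or left out, genes under 1 FPKM in any sample were dropped, values were scaled by quantiles or by the median of ratios, the entry with the highest mean replaced the sum, the threshold was 3-fold, or the control was exchanged. Motifs were searched on both strands of the 250 bases before each start, the E-box (CACGTG) and 2 E2F motifs among them, and other common promoter elements that were searched are not described. Scripts were tested on simulated data. Python 3.11.15, numpy 2.4.6, pandas 2.3.3, scipy 1.17.1 and matplotlib 3.10.9 were used.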

Additional observations from a re-analysis of the deposited data

How the results depend on the processing

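No paired analysis was possible because each group had 1 sample. In FLAG-CACUL1 against FLAG, 4 members were past 2-fold and 1 at 3-fold. With the other control 2 were, Ccne1 and Cdkn1a, neither of them among the 4. In FLAG against sh-Luc, 4 became 1 at 3-fold and 2 after subtraction of the median of all genes, an alternative chosen after seeing the data. In sh-CACUL1 against sh-Luc the count of 3 ranged from 2 to 3, but with the other control the 3 were Cdk4, Cdkn1a and a reversed Ccnd1, so that of Ccnd1, Cdk4 and Cdk6 only Cdk4 kept its call. With the other control, Ccnd1 was -0.158 in FLAG-CACUL1 in place of 3.464 and 1.809 in sh-CACUL1 in place of -1.813. The same exchange turned Ccnd2, Cdk2 and Cdk6 in FLAG-CACUL1 and Cdk2 and Rb1 in sh-CACUL1. The filter on low values left out Cdk6 and kept 9 members. A pseudocount cannot turn a direction, and each member had 1 entry, so these alternatives could not change any sign. The cause of these shifts was not tested. Depth is estimated and limits Cdk6 and Ccne1 most, and of 30 neighbouring steps in the order of the lines, 6 had counting intervals that held 0.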

Other observations

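Of the 12 mitogen and stress regulators, 4 were past 2-fold between the control lines. In FLAG 1 was higher and 3 were lower than in sh-Luc, beside 8.58% and 12.4% of all genes. Egr1, an immediate early gene, had 2.94 FPKM in FLAG and 5.19 in FLAG-CACUL1, beside 63.4 in sh-Luc and 27.6 in sh-CACUL1, a change of -4.03 in FLAG against sh-Luc. Mdm2, the ubiquitin ligase of p53, had 414, 308, 1430.0 and 906 FPKM in the same order, a change of -1.79. Both hairpin lines were thus above both FLAG lines for Mdm2 and below them for Cdkn1a. The share of all genes with either order was not counted. Trp53 (chosen after its values were seen) had 24.4, 44.7, 67.0 and 28.0 FPKM. Fosl1 was highest in FLAG, with 42.6 FPKM against 8.15, 8.00 and 1.70.

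Myc, also chosen after its values were seen, had 12.8 FPKM in FLAG and 8.13 in FLAG-CACUL1, beside 20.7 in sh-Luc and 38.3 in sh-CACUL1.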
